A study of Mus musculus with 6 samples.

Results

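A set of 40 imprinted genes was chosen by name from the deposited gene count table, and Impact was not among them. All 40 symbols were present, each on a single row of the 56748 genes in the table. The rule uses names alone, although the list was drawn up with earlier results of these data known. The question was how the RNA of these genes was distributed in hearts with and without extra Pontin under hypertrophic stress. Pontin, encoded by Ruvbl1, is an ATPase of chromatin remodelling complexes. The Pontin cTG mice carried human Pontin with a flag tag, driven in cardiomyocytes by the α-MHC promoter, and the WT mice were their non-transgenic littermates. Male mice on a C57Bl/6 background, 10 weeks old, of both genotypes were infused with Ang-II (1.5 mg per kg body weight and day) over 14 days from an osmotic mini-pump, so the controls were stressed hearts and no unstressed heart entered the comparison. Bulk heart RNA was sequenced from 3 WT and 3 Pontin cTG samples. The libraries held between 12436822 and 13194038 counts in the WT group and between 14584102 and 16888124 counts in the Pontin cTG group.

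An imprinted gene is transcribed mainly from the copy inherited from the mother or mainly from the copy inherited from the father, because DNA methylation laid down in the egg or the sperm marks the copies differently. Many of these genes lie in clusters that share a control region, and long non-coding RNAs such as Airn and Kcnq1ot1 silence their neighbours on the same chromosome. A large share of imprinted genes act on fetal growth and fall to low levels in the heart after birth. Of the members, 17 are mainly maternally expressed and 23 mainly paternally expressed, as background knowledge, and for several of them (Ube3a, Blcap, Copg2, Gatm, Commd1) imprinting is known only in some tissues or stages. The counts do not separate the parental copies, so every value below is the sum over both.

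Several members are host genes of microRNAs, which pair with target messages mainly through the seed at bases 2 to 8. In the RefSeq tables for GRCm38.p6, 40 mature microRNAs lay within 8 members on the same strand, and they carried 39 different seeds. Mirg hosted 19, Rian 6, Rtl1 4, Meg3 3, and H19, Igf2, Mest and Usp29 hosted 2 each. The libraries measured the host transcripts and not the mature microRNAs. The sequences printed here, with the seed in capitals, belong to H19, Meg3, Rian and Mest, whose levels are described below, and to Mirg for the only seed that was shared, that of miR-453 and miR-496a-5p. Mirg itself had 36 counts over all libraries.
mmu-miR-675-5p (H19): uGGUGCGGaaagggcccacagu
mmu-miR-675-3p (H19): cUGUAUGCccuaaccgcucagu
mmu-miR-770-5p (Meg3): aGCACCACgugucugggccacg
mmu-miR-370-3p (Rian): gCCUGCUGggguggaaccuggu
mmu-miR-335-5p (Mest): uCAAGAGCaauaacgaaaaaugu
mmu-miR-453 (Mirg): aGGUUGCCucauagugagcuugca
mmu-miR-496a-5p (Mirg): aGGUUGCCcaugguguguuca

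The letters TGCCGC are the core that ZFP57, a zinc finger protein that keeps imprinted methylation in place, is known to bind when methylated. They were searched on both strands (TGCCGC or GCGGCA) in the 250 bases before each annotated start. Of the 35 members with a promoter entry, 7 (20.0%) held them in at least 1 promoter, and so did 9.8% of the 27025 genes in the promoter table. Counted by promoter, because some genes have several, the shares were 15.7% for the members and 8.7% for all promoters. Median GC content of the windows was 56.8% for the members and 52.4% for all promoters, and a match describes letters and not a bound site. The 7 genes were Zdbf2, Mest, Copg2, Nap1l5, Zim1, Plagl1 and Meg3. A window with a match is shown for each of Mest, Copg2 and Meg3, because the values of these genes over the libraries are described in detail. Matches are in capitals, and the letters run 5′ to 3′ on the strand of the gene. Mest and Meg3 each also had an annotated window without a match (chr6:30733256-30733505 and chr12:109545148-109545397). Window coordinates are in GRCm38.p6, while the gene coordinates given below are in GRCm39.
Mest, chr6:30737800-30738049, plus strand: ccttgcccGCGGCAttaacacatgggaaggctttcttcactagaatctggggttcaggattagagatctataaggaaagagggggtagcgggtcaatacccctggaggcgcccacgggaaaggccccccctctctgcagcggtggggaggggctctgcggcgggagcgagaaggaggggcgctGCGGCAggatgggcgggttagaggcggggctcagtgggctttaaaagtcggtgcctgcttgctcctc
Copg2, chr6:30896795-30897044, minus strand: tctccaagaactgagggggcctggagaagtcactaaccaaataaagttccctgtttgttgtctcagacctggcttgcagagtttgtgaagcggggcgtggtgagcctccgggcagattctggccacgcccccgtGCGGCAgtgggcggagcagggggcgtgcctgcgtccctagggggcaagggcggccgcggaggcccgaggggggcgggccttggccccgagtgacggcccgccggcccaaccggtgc
Meg3, chr12:109540746-109540995, plus strand: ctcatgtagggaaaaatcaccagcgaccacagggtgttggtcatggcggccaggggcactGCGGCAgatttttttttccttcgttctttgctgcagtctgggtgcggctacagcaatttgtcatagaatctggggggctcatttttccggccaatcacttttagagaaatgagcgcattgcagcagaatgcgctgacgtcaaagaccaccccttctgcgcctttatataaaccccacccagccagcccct

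The hearts expressed a subset of the imprinted genes. Enough counts for a test, by edgeR's filter, were found for 25 of the 40 members and for 13888 genes in all. A further 11 members (Igf2, Mirg, Dlk1, Rtl1, Slc22a18, Zdbf2, Nnat, Nap1l5, Sfmbt2, Rasgrf1 and Ascl2) had some counts but too few. The other 4 (Usp29, Phlda2, Snurf and Magel2) had 0 counts in every library, where a count of 0 allows a level of up to 3 counts, or 2.57 to 3.36 normalised counts depending on the library, a limit that covers counting error only. Snurf lies inside Snrpn on the same strand, and reads falling in both could be credited to neither or to Snrpn, so its 0 counts do not describe its RNA.

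Compared per length, on a TPM scale averaged over the 6 libraries, the highest level was that of Igf2r, the receptor that carries insulin-like growth factor 2 to lysosomes, at 39.4 TPM. Snrpn, a spliceosomal protein, stood at 33.4 TPM and Blcap, a small apoptosis-related membrane protein, at 33.1 TPM. The ranges of these 3 genes over the libraries overlapped, so their order is not resolved. Grb10, an adaptor that dampens insulin receptor signalling, followed at 26.5 TPM, Copg2, a coatomer subunit, at 18.2 TPM and Cdkn1c, a cyclin-dependent kinase inhibitor, at 12.3 TPM. H19, a non-coding RNA of the Igf2 cluster, reached 9.65 TPM and Zrsr1, a splicing factor related gene, 8.45 TPM. Igf2 itself, a major fetal growth factor, stood at 0.247 TPM and Dlk1, a fetal regulator of differentiation, at 0.0145 TPM.

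**Figure D1:**
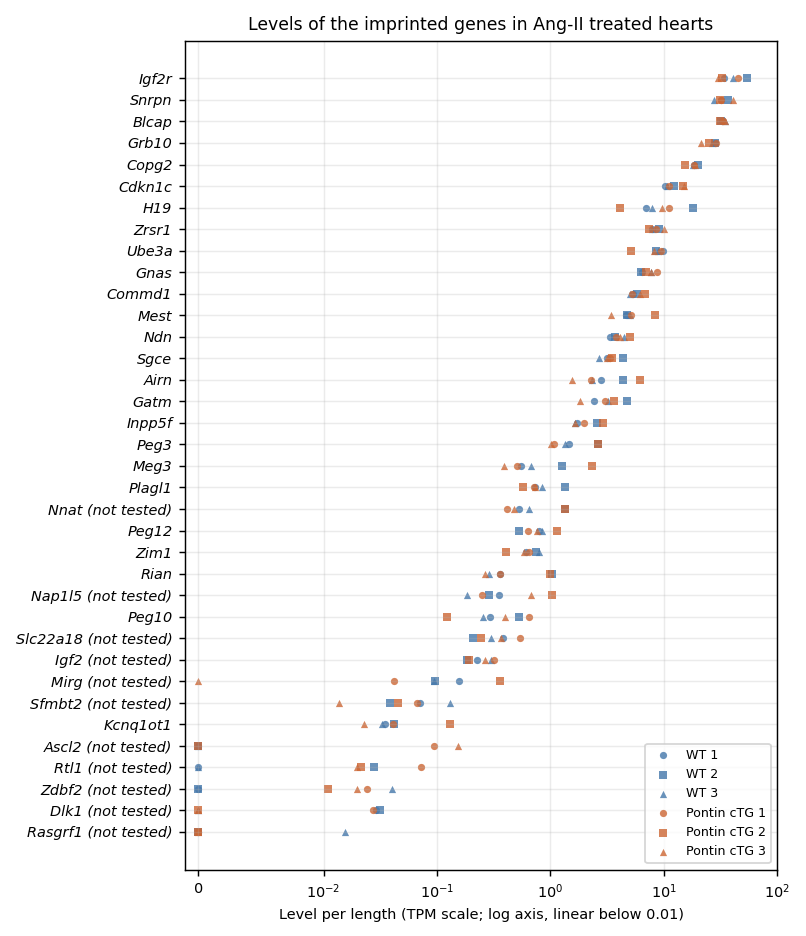
Level per length of the 36 imprinted genes with any count, on the TPM scale (log axis, linear below 0.01), with 1 point for each of the 6 libraries (blue WT, orange Pontin cTG; circle, square and triangle for replicates 1, 2 and 3). Igf2r, Snrpn and Blcap lead with means of 39.4, 33.4 and 33.1 TPM, the WT and Pontin cTG points of each gene intermix, and the square symbols often lie apart for Meg3, Rian, Airn and H19.

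The targeted gene was examined before the comparison. Mouse Ruvbl1 stood at 216, 221 and 217 normalised counts (counts scaled to a common library size) in the WT libraries and at 250.01, 249.8 and 240.02 in the Pontin cTG libraries. The groups did not overlap, as for 4.7% of all genes in this direction, and the log2 fold change of 0.18 (SE 0.12) did not pass edgeR's test (adjusted p = 0.999). The row is an incomplete check of the labels, because transgene reads are of human sequence and may be missed by a mouse annotation. Ruvbl2, its partner ATPase, had a log2 fold change of 0.04 (SE 0.13). The label of heart tissue was matched by the cardiomyocyte markers (Myh6, Tnnt2, Tnni3, Actc1, Ryr2, Pln, Myl2 and Nppa), which summed to between 616815 and 743340 normalised counts in every library, while the adipocyte markers summed to at most 6.84 and the skeletal muscle markers to at most 11.3.

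No imprinted gene passed the test between Pontin cTG and WT hearts. Of the 25 members tested, 0 passed an adjusted p of 0.05 (edgeR's quasi-likelihood F-test, adjusted after Benjamini and Hochberg over all genes tested), as did 0% of the 13888 genes, and the adjusted p was 0.999 for every member. At an unadjusted p under 0.05 there were also 0 members, where 2.05% of all genes passed (1.02% higher and 1.03% lower in Pontin cTG hearts). DESeq2 called 0 members at either threshold (1.58% of all genes before adjustment), and limma-voom with quality weights 0 after adjustment and 1 before it (Gnas, beside 5.72% of all genes). Groups that did not overlap were found for 0 members and for 8.33% of all genes. The fitted fold change was above 0 for 13 members and below 0 for 12, with a median log2 fold change of 0.04 beside 0.00 over all genes tested. The smallest p that exact permutation of 3 against 3 hearts allows for any gene is 0.1, and a gene that misses the threshold is not shown to be equal in both groups. In bulk RNA, fewer cells of a type and less RNA per cell cannot be told apart.

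**Figure D2:**
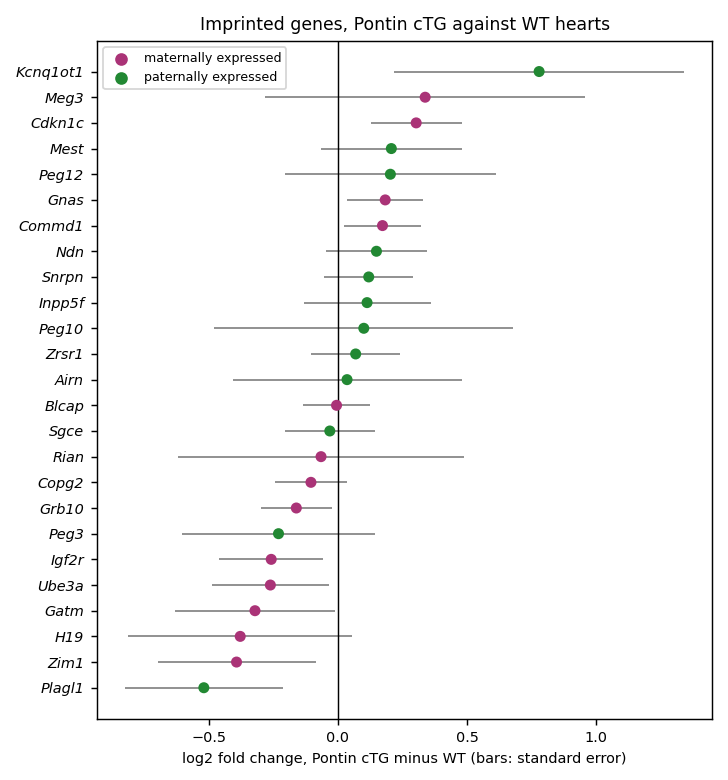
The log2 fold change (Pontin cTG minus WT) of the 25 tested imprinted genes with its standard error from edgeR, coloured by the parental copy that is known to be mainly expressed. Estimates run from -0.52 for Plagl1 to 0.78 for Kcnq1ot1, and the longest bars belong to non-coding RNAs and Peg10.

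By parental origin, 4 of the 13 tested maternally expressed genes had a fold change above 0 and 9 below, with a median log2 fold change of -0.10. Among the 12 tested paternally expressed genes 9 were above 0 and 3 below, with a median of 0.11. Without Pontin cTG 2 alone these medians were -0.03 and -0.04, and without the replicate 2 libraries of both groups they were 0.00 and 0.01. None of the genes of either class passed the test, and the difference between the classes was not tested.

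Among growth regulators, Cdkn1c (chr7:143012076-143014787 in the table's GRCm39 coordinates), the inhibitor of cell cycle entry encoded beside Kcnq1ot1, had the smallest p of all members in the reported fit. The smallest p was that of Plagl1 with DESeq2, Gnas with limma-voom, Ube3a with the replicate block and Kcnq1ot1 without a filter. Cdkn1c stood at 141, 159 and 142 normalised counts in WT and at 145, 189 and 211 in Pontin cTG hearts. The Pontin cTG 1 heart lay among the WT values while the other Pontin cTG hearts were above all of them, and the log2 fold change was 0.30 (SE 0.18, unadjusted p = 0.12 by edgeR). Leaving out Pontin cTG 1 gave an unadjusted p of 0.027, at which 4.48% of all genes passed 0.05, and an adjusted p of 0.879 or more for every member. Without that heart 5 of 26 members had groups that did not overlap, beside 20.7% of all genes. The log2 fold change of Cdkn1c was 0.45 without Pontin cTG 1 and 0.18 without Pontin cTG 3.

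Plagl1, a zinc finger transcription factor of the imprinted growth network (chr10:12936248-13007438), had the lowest estimate. It stood at 38.6, 67.3 and 43.6 normalised counts in WT and at 36.1, 28.2 and 39.9 in Pontin cTG hearts. WT 2 was the highest and Pontin cTG 2 the lowest library, the groups overlapped narrowly, and the log2 fold change was -0.52 (SE 0.31, unadjusted p = 0.124 by edgeR). It was -0.24 without WT 2 and -0.11 without WT 2 and Pontin cTG 2.

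Igf2r (chr17:12901293-12988551) stood at 2155, 3183 and 2471 normalised counts in WT and at 2709, 1901 and 1920.2 in Pontin cTG hearts. WT 2 was highest and the groups overlapped (log2 fold change -0.26, SE 0.20, and -0.44 to -0.088 over the fits without a single library). Its ligand gene Igf2 was near the limit of detection, at 8.81, 6.73 and 11.2 normalised counts in WT and 11.7, 6.84 and 10.4 in Pontin cTG hearts. Grb10 (chr11:11880508-11988683) held 1745, 1636 and 1601 normalised counts in WT and 1692, 1417 and 1347 in Pontin cTG hearts, of which Pontin cTG 1 lay within the WT range. Its log2 fold change was -0.16 (SE 0.14), with an approximate 95% interval from -0.43 to 0.11, so that a change of 2-fold in either direction was outside it. The interval rests on a normal approximation, which is too narrow with few hearts.

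Gnas, which encodes the stimulatory G protein α subunit and several imprinted isoforms that the table does not separate, stood at 491, 461 and 581 normalised counts in WT and at 632, 500 and 610.0 in Pontin cTG hearts. Pontin cTG 2 lay among the WT values (log2 fold change 0.18, SE 0.15). Ndn, a growth-restraining MAGE family protein of the Prader-Willi cluster, stood at 84.8, 87.5 and 108 normalised counts in WT and 89.8, 117 and 104 in Pontin cTG hearts, with overlapping groups. Dlk1 had 3 counts in all 6 libraries together.

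**Figure D3:**
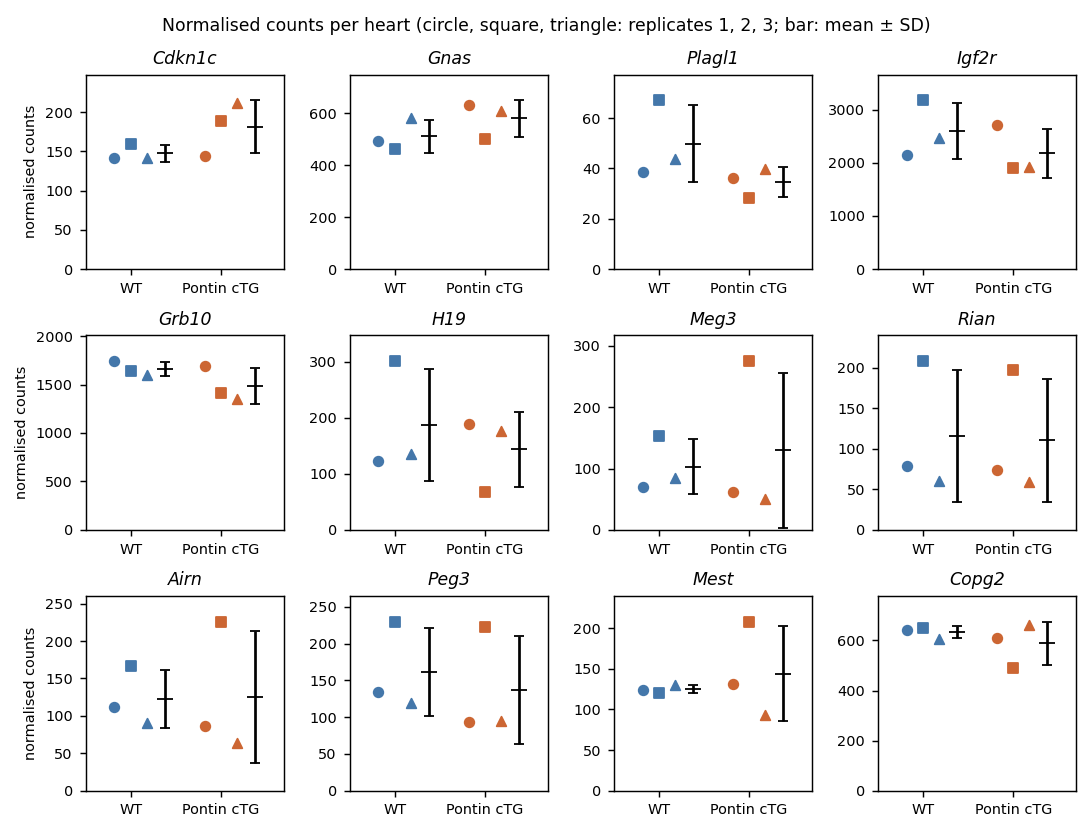
Normalised counts of 12 imprinted genes in each heart (vertical axes from 0), with circle, square and triangle for replicates 1, 2 and 3 and the bar at the right of each group for its mean ± SD (n = 3). In Meg3, Rian, Airn and Peg3 the square of each group lies above the other symbols of that group, and in no panel are the WT and Pontin cTG points fully apart.

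The non-coding RNAs were among the most variable members between hearts of the same group. Meg3 (chr12:109506879-109538165), a maternally expressed RNA known to associate with Polycomb proteins, stood at 70.5, 154 and 85.0 normalised counts in WT and at 62.5, 275 and 51.1 in Pontin cTG hearts. Rian, transcribed downstream of Meg3 and host of snoRNAs and microRNAs, stood at 78.2, 209 and 60.4 in WT and at 74.2, 198 and 58.9 in Pontin cTG hearts. Replicate 2 was the highest heart of its group for both RNAs, and the labels do not say whether same-numbered hearts of both groups were linked.

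Airn, the antisense RNA that silences paternal Igf2r in the embryo and overlaps it over 28354 bases, stood at 111, 166 and 90.6 normalised counts in WT and at 85.9, 226 and 64.1 in Pontin cTG hearts. Peg3, a paternally expressed zinc finger protein, stood at 134, 229.9 and 119.6 in WT and at 93.8, 222 and 95.3 in Pontin cTG hearts. As in Meg3 and Rian, WT 2 and Pontin cTG 2 lay above the other 4 hearts in both.

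Kcnq1ot1, the antisense RNA of the Cdkn1c cluster, was high in a single heart, at 22.0, 24.7 and 20.1 normalised counts in WT and at 24.4, 75.3 and 14.7 in Pontin cTG hearts. H19 went the other way within the Pontin cTG group, at 123.4, 302 and 135 in WT and at 188, 66.7 and 177 in Pontin cTG hearts, so that its highest heart was WT 2 and its lowest Pontin cTG 2. Its log2 fold change was -0.38 (SE 0.43). Without Pontin cTG 3, Kcnq1ot1 had an unadjusted p of 0.0408 by edgeR, beside 2.87% of all genes under 0.05, and 2 of 27 members had groups without overlap, beside 17.9%. The log2 fold change of Kcnq1ot1 was 0.78 in the reported fit, 1.17 without Pontin cTG 3 and -0.19 without Pontin cTG 2.

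The spread of a gene between hearts of a group was expressed as edgeR's biological coefficient of variation. It was 0.51 for Meg3, 0.47 for Rian, 0.45 for Kcnq1ot1 and 0.43 for Peg10, above that of 98.8%, 98.1%, 97.8% and 97.3% of all genes tested. Airn stood at the 95.04, H19 at the 94.6 and Peg3 at the 90.6 percentile. At the other end Blcap (0.13, percentile 8.89), Copg2 (0.14, percentile 17.6) and Grb10 (0.14, percentile 18.02) were among the steadier genes. The median was 0.22 for the 25 members and 0.18 for all genes tested, and 15 members lay above the latter. The coefficient tends to be larger at low counts, and no test was made of it.

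**Figure D4:**
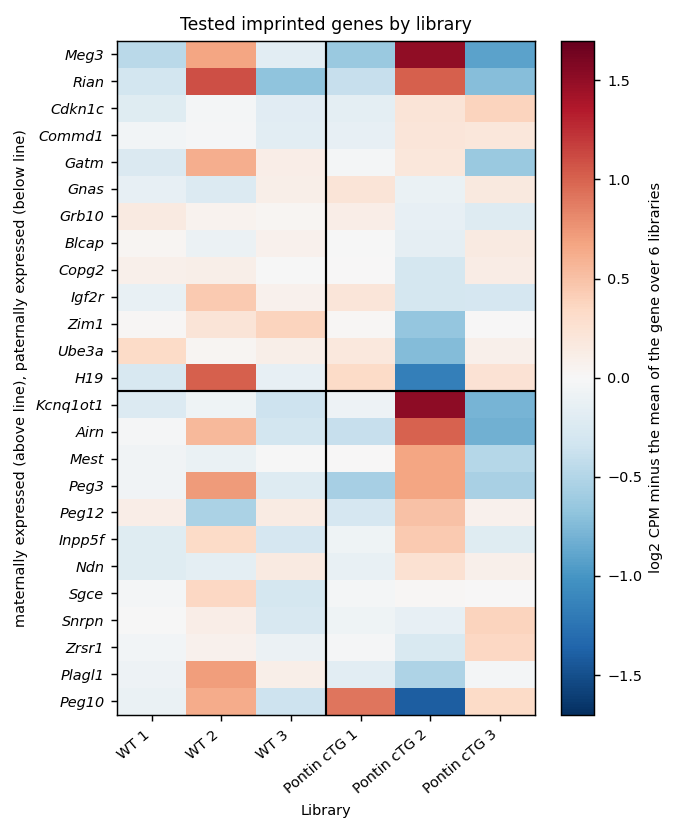
Log2 CPM of the 25 tested imprinted genes in each of the 6 libraries, minus the mean of the gene (colour scale in log2 units; red above and blue below), with maternally expressed genes above the horizontal line and paternally expressed genes below it. The strongest colours fall in WT 2 and Pontin cTG 2, which held the highest value of 7 and 8 genes.

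WT 2 and Pontin cTG 2 stood apart from the other hearts across the transcriptome as well. On the first principal component of all genes tested, which carried 47.4% of the variance, Pontin cTG 2 scored 52.8 and WT 2 scored 17.6, while the other 4 libraries lay between -25.0 and -13.4. Pontin cTG 2 held the highest value of 8 of the 25 members (32%) and of 30.2% of all genes, and WT 2 of 7 members (28%) and of 16.8% of all genes. The lowest value was in Pontin cTG 2 for 9 members (36%) and 30.7% of all genes, and in WT 2 for 2 members (8%) and 15.4%.

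The summed markers of fibroblasts, endothelial cells and cardiomyocytes were also highest in these hearts, and those of other cell types were not. For fibroblasts the summed level of the list (Col1a1, Col1a2, Col3a1, Pdgfra, Lum, Tcf21 and Postn) was 12112, 20485 and 10669 normalised counts in WT and 13153, 21366 and 8558 in Pontin cTG hearts. Col3a1 was its most abundant gene, none of its 7 genes was at 0, and WT 2 and Pontin cTG 2 were the highest hearts for 6 of them, Tcf21 being the exception. Postn, a matrix protein of activated fibroblasts and the most variable of the list, stood at 1531, 2431 and 1047 in WT and at 1693, 4852 and 620.4 in Pontin cTG hearts. The endothelial list (Pecam1, Cdh5, Kdr, Tie1 and Vwf, Kdr being the most abundant) summed to 13589.8 in WT 2 and 14747 in Pontin cTG 2 and to between 10481 and 12375 in the other hearts, although only 1 of its 5 genes had both hearts highest.

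The cardiomyocyte list, led by Myh6, summed to 743340 in WT 2 and 695092 in Pontin cTG 2 and to between 616815 and 642464 in the other hearts, with 1 of its 8 genes highest in both. Its member Nppa, the natriuretic peptide that marks cardiac stress, stood at 1551, 858 and 1843 in WT and at 1205, 7709 and 360.5 in Pontin cTG hearts, and was high in Pontin cTG 2 alone. Other lists had another order. Smooth muscle and pericyte markers, led by Rgs5, summed to 15664 in WT 1 and to between 13379 and 14408 elsewhere, and erythroid markers were highest in WT 3 (22343). Macrophage markers, led by Csf1r, were highest in WT 2 (3057), with Pontin cTG 2 (2094) below WT 3 (2161) and Pontin cTG 1 (2211). The same pair of hearts was highest for 8 of the 25 tested imprinted genes (32%), for 7 of 21 imprinting control genes and for 17.0% of all genes tested. The pair was highest for only 3 of 23 other imprinted genes and 2 of 13 genes of the insulin-like growth factor axis. The nuclear RNAs Malat1 and Neat1, looked up after their values were seen, shared the pattern, with Neat1 at 2638, 5125 and 2589.6 in WT and 1742, 12517 and 1742 in Pontin cTG hearts. The part of cell composition or RNA quality in the levels of the imprinted RNAs was not tested.

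**Figure D5:**
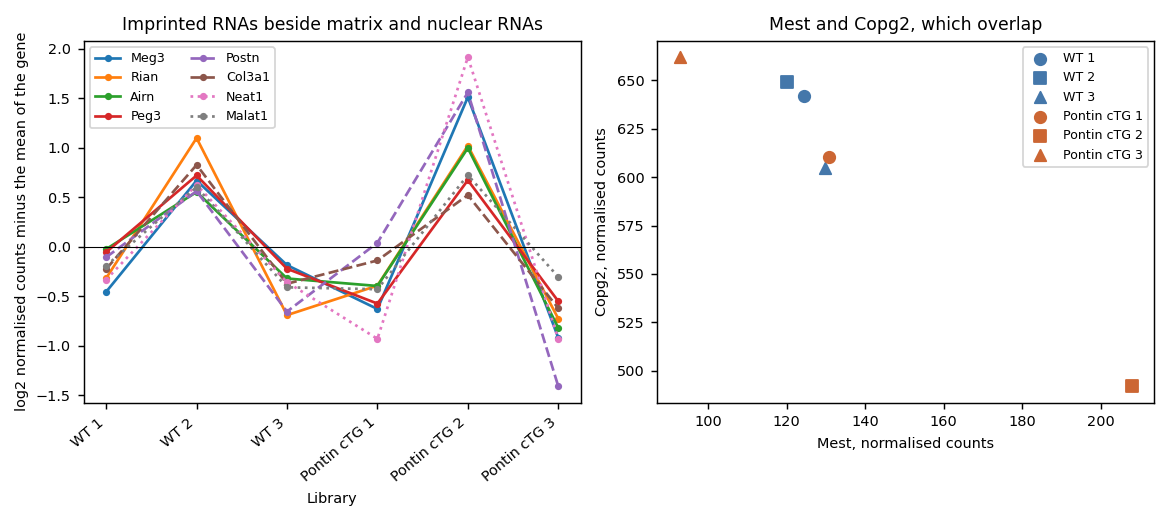
Left, log2 normalised counts of 4 imprinted RNAs (solid), 2 matrix genes (dashed) and 2 nuclear RNAs (dotted) in each library, minus the mean of the gene; all 8 are highest in WT 2 and Pontin cTG 2. Right, Copg2 against Mest in normalised counts (axes do not start at 0), where Pontin cTG 2 has the most Mest (208) and the least Copg2 (492).

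Leaving out WT 1, WT 2 or WT 3 gave 0 members with an unadjusted p under 0.05, beside 0.847%, 1.31% and 1.68% of all genes. Each of these fits had 2 members whose groups did not overlap, beside 13.2%, 16.4% and 16.8% of all genes. Leaving out Pontin cTG 2 changed what passed before adjustment. In that fit 4 of 26 members (15.4%) had an unadjusted p under 0.05, where 4.91% of all genes did, and the same 4 had groups that did not overlap, where 21.5% of all genes did. Meg3 then had a log2 fold change of -0.86 (unadjusted p = 0.0278 by edgeR), Peg3 of -0.77 (unadjusted p = 0.0195) and Airn of -0.71 (unadjusted p = 0.0257). With all hearts the estimates were 0.34 for Meg3, -0.23 for Peg3 and 0.04 for Airn, so Meg3 and Airn changed direction. Gnas had a log2 fold change of 0.28 (unadjusted p = 0.0476 by edgeR), and the adjusted p was 0.889 for each of the 4 genes. In those 3 RNAs WT 2 was the highest of the remaining hearts. When WT 2 was left out together with Pontin cTG 2, an alternative added after the data were seen, 2 of 26 members passed (7.69%, beside 4.15% of all genes). They were H19 (log2 fold change 0.50, unadjusted p = 0.0097 by edgeR) and Peg3 (-0.42, unadjusted p = 0.0445), with an adjusted p of 0.9996 for both. Groups without overlap were then found for 10 of 26 members (38.5%), beside 32.8% of all genes.

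Neighbouring members were compared over the 6 libraries. Of 19 pairs within a cluster, 8 had both genes tested, and Pearson's r passed adjustment for 1. This was Mest and Copg2 (r = -0.951, exact permutation p = 0.00278, adjusted p = 0.0222; Spearman's rho = -0.943, exact permutation p = 0.0167, adjusted p = 0.133). Mest, a hydrolase-like growth gene, stood at 124, 120.0 and 129.7 normalised counts in WT and at 131, 208 and 92.7 in Pontin cTG hearts. Copg2 stood at 642, 649 and 605 in WT and at 610.4, 492 and 662 in Pontin cTG hearts. The heart with the most Mest thus had the least Copg2 and the heart with the least Mest had the most Copg2.

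The correlation was -0.951 again without the 2 libraries farthest from the median of Mest (Pontin cTG 2 and Pontin cTG 3), and -0.974 for deviations from the group means. Both genes also followed the first principal component, Mest with r = 0.832 and Copg2 with r = -0.793, and 174 of the 13887 other genes tested (1.25%) correlated with Mest at least as negatively. The genes overlap on opposite strands over 912 bases (chr6:30747553-30748464 in GRCm39). The strand setting of the counting is not given in the sources used here. Reads from this stretch therefore cannot be assigned to either gene with certainty. Copg2 also overlaps another gene on the opposite strand, with 889 counts over all libraries, which limits the values of Copg2 in the same way.

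Meg3 and Rian varied together over the hearts (r = 0.901, exact permutation p = 0.0361, adjusted p = 0.144; rho = 0.771, exact permutation p = 0.103, adjusted p = 0.411). Of the other genes tested, 4.84% correlated with Meg3 at least as positively, and negative correlations were not counted. Without WT 2 and Pontin cTG 2 the value was 0.120, so the relation rested on those hearts. The silencer RNA Airn and its target Igf2r gave r = 0.0766 and Cdkn1c and Kcnq1ot1 gave r = 0.170, neither of which passed an exact permutation test (p = 0.883 and p = 0.801, adjusted p = 0.883 for both). Overlap with an opposite-strand neighbour also limits the values of Airn, Kcnq1ot1 (inside Kcnq1 over all of its 93092 bases), Nnat (inside Blcap), Zrsr1 (inside Commd1) and Ube3a (which overlaps Snhg14).

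The remaining tested members had overlapping groups in the same way. Snrpn stood at 466, 506 and 389 normalised counts in WT and at 444, 425 and 608 in Pontin cTG hearts, with Pontin cTG 3 highest. Ube3a, a ubiquitin ligase, stood at 1385, 1133 and 1191 in WT and at 1256, 665 and 1174 in Pontin cTG hearts, where a single heart, Pontin cTG 2, was low. Blcap stood at 671, 617 and 695 in WT and at 653, 593 and 729.6 in Pontin cTG hearts, with group means of 661 ± 40.2 and 659 ± 68.5 (SD, n = 3).

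Zim1, a zinc finger gene beside Peg3, stood at 33.0, 38.1 and 42.5 normalised counts in WT and at 33.2, 20.5 and 32.9 in Pontin cTG hearts (log2 fold change -0.39, SE 0.31, and -0.20 without Pontin cTG 2). Commd1, a copper and NF-κB regulator whose intron holds Zrsr1, stood at 215, 218 and 196 in WT and at 200.2, 254 and 253 in Pontin cTG hearts (0.17, SE 0.15). Zrsr1 stood at 239, 259 and 230.3 in WT and at 243, 206 and 315 in Pontin cTG hearts. The WT and Pontin cTG values of all 3 genes overlapped, and the log2 fold changes of Sgce, Peg10, Inpp5f, Peg12 and Gatm lay between -0.32 and 0.20.

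Genes that set or keep imprints were given as a companion list. Of 24, 21 were tested, 8 with a fold change above 0 and 13 below, and 0 passed an adjusted p of 0.05. At an unadjusted p under 0.05, 2 were lower, where 1.03% of all genes were. Tet1, which oxidises 5-methylcytosine, stood at 159, 117 and 131 normalised counts in WT and at 71.3, 78.7 and 101 in Pontin cTG hearts. Every Pontin cTG heart lay below every WT heart, as for 3.63% of all genes (log2 fold change -0.69, SE 0.21, unadjusted p = 0.00857, adjusted p = 0.999 by edgeR).

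Smchd1, an SMC-related repressor of some imprinted clusters and of the inactive X chromosome, stood at 476, 461 and 437 normalised counts in WT and at 403, 314 and 359 in Pontin cTG hearts, again without overlap (log2 fold change -0.35, SE 0.13, unadjusted p = 0.0269, adjusted p = 0.999 by edgeR). Leaving out WT 1 ended both calls, with a log2 fold change of -0.56 and an unadjusted p of 0.0505 for Tet1 and of -0.32 and 0.0934 for Smchd1 by edgeR. Over the fits without a single library the list had 0 to 4 genes under 0.05, beside 0.847% to 4.91% of all genes, and Smchd1 also missed it without WT 2 or without Pontin cTG 3.

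Tet3, another 5-methylcytosine dioxygenase and the next by p, stood at 380.03, 369 and 419 normalised counts in WT and at 330.1, 394 and 297 in Pontin cTG hearts, with overlap. Trim28, the corepressor recruited by ZFP57, was looked up after its values were seen and stood at 815, 746 and 829 in WT and at 872, 834 and 882 in Pontin cTG hearts. Its groups did not overlap, as for 4.7% of all genes in this direction, but the log2 fold change was 0.12 (SE 0.12, unadjusted p = 0.35 by edgeR). Zfp57 itself was low and followed the hearts described above, at 19.8, 35.9 and 17.9 normalised counts in WT and 16.6, 59.9 and 17.3 in Pontin cTG hearts.

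Of 36 other genes with reported imprinting, 23 were tested, with 8 above 0 and 15 below, and 0 passed adjustment. Slc38a4, an amino acid transporter, stood at 229, 224 and 218 normalised counts in WT and at 191, 144 and 171 in Pontin cTG hearts, without overlap (log2 fold change -0.41, SE 0.15, unadjusted p = 0.0237, adjusted p = 0.999 by edgeR). Pon3, a lactonase of the Peg10 cluster, stood at 317, 268 and 279.5 in WT and at 236, 168 and 250.4 in Pontin cTG hearts, also without overlap (-0.40, SE 0.17, unadjusted p = 0.0465 by edgeR). Casd1, a sialic acid acetyltransferase of the same cluster, stood at 589, 569 and 539 in WT and at 479, 364 and 529 in Pontin cTG hearts, without overlap as well (-0.31, SE 0.15), so 3 of 23 genes were lower in every Pontin cTG heart, where 3.63% of all genes were. Over the fits without a single library the log2 fold changes ranged from -0.50 to -0.31 for Slc38a4, -0.51 to -0.24 for Pon3 and -0.42 to -0.17 for Casd1. The calls at an unadjusted p under 0.05 depended on single hearts, with 0 to 4 genes of the list over the fits without a library, beside 0.847% to 4.91% of all genes, and 0 without WT 1, WT 2 or WT 3, beside 0.847%, 1.31% and 1.68%. DESeq2 gave 1 (beside 1.58% of all genes), with an unadjusted p of 0.0621 for Pon3, and limma-voom gave 4 (beside 5.72%), among them Casd1 with an unadjusted p of 0.0492.

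The insulin-like growth factor axis, the pathway in which Igf2, Igf2r and Grb10 act, had 13 of 18 genes tested, with 6 above 0 and 7 below, and 0 passed at an adjusted or an unadjusted p of 0.05. Igfbp3, a carrier of the growth factors, had the smallest p and stood at 304, 349.9 and 335 normalised counts in WT and at 299, 479 and 440.2 in Pontin cTG hearts (log2 fold change 0.30, SE 0.18). Igfals, which stabilises the carrier complex, stood at 117, 81.9 and 106 in WT and at 79.1, 89.8 and 82.3 in Pontin cTG hearts (-0.28, SE 0.20). Irs2, an adaptor of the receptor, stood at 163, 147 and 306 in WT and at 184, 74.4 and 175 in Pontin cTG hearts (-0.51, SE 0.37), with a log2 fold change of -0.10 without WT 3 and -0.20 without Pontin cTG 2. The groups of all 3 genes overlapped. Over the fits without a single library the log2 fold changes ranged from 0.17 to 0.49 for Igfbp3 and from -0.41 to -0.16 for Igfals. Before adjustment the list had 0 to 2 genes under 0.05 when single libraries were left out (2 without Pontin cTG 1, beside 4.48% of all genes). It had 2 with the replicate block, 1 with limma-voom and 1 without a filter, where 3.59%, 5.72% and 1.86% of all genes passed. Of the 15 imprinted members counted as the growth network, 11 were tested, 5 above 0 and 6 below, with a median log2 fold change of -0.03.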

How the data were processed

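Gene counts of 6 heart libraries were analysed. Per the labels, the submitters' processing notes name fastp, HISAT2, featureCounts, DESeq2 and GRCm39 (mm39). The study's methods also name DESeq2, but other software for trimming, mapping and counting and an older build, with an outlier removed that is not identified. Which steps made the deposited counts is therefore unclear, and the strand setting is not given in the sources used here. Values are whole counts per Ensembl gene as deposited, with gene length, and the labels call the samples biological replicates. Levels between genes used counts per kilobase of the table's gene length.

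Counts were fitted with edgeR 4.0.16 (filterByExpr with a minimum of 10, TMM, robust quasi-likelihood fit, genotype only, R 4.3.3), with Benjamini-Hochberg adjustment over all genes tested. The alternatives were DESeq2 1.42.0, limma 3.58.1 (voom with quality weights), other scalings and filters, a replicate block and leaving out libraries. On simulated counts edgeR recovered 139 of 200 changed genes, 56 of 100 at 2-fold and 83 of the 95 at 4-fold that passed the filter, among 13698 genes, with 15 false calls. No pair of libraries agreed within sampling noise. Members, lists and pairs were chosen with earlier results of these data known. Values by library are given for the 8 highest levels per length, the 5 smallest p in each direction and named growth genes, and from each companion list the 3 smallest p. Rian, Airn, Zfp57, Trim28, Malat1 and Neat1 were added after values were seen. Ruvbl1, Postn and Nppa are given as well, outside these rules.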

Additional observations from a re-analysis of the deposited data

How the results depend on the processing

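No imprinted gene passed an adjusted p of 0.05 under any of the 14 alternatives, and all median log2 fold changes of the tested members stayed between -0.081 and 0.12. Leaving out single libraries, 0 to 4 members had an unadjusted p under 0.05 and 2 to 5 had groups without overlap. limma-voom with quality weights gave 1 member under 0.05, and leaving out WT 2 and Pontin cTG 2 (an alternative chosen after seeing the data) gave 2, with 10 whose groups did not overlap. The share of all genes under each of these settings is given above. The companion lists moved too, from 0 to 4 genes under 0.05 for imprinting control, 0 to 4 for the other imprinted genes and 0 to 2 for the insulin-like growth factor axis when single libraries were left out.

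Some directions turned, among them those of Kcnq1ot1, Meg3, H19 and Igf2r, whose estimates were not near 0, and the cause was not tested. The log2 fold change of Blcap, -0.01 in the reported fit, was 0.021 when scaled by library size alone, 0.0021 when each library had to hold at least 10 counts and 0.0033 with limma-voom. limma-voom also turned Igf2r (0.015), H19 (0.29), Meg3 (-0.32) and Mest (-0.061). Over the fits without a single library, the log2 fold changes ranged from -0.085 to 0.065 for Blcap, -0.61 to 0.15 for H19, -0.77 to 0.11 for Peg3, -0.20 to 0.0097 for Copg2, -0.19 to 1.17 for Kcnq1ot1, -0.86 to 0.74 for Meg3, -0.16 to 0.44 for Mest, -0.060 to 0.22 for Snrpn and -0.11 to 0.20 for Zrsr1. Without WT 2 and Pontin cTG 2 they were 0.0025 for Igf2r, 0.020 for Blcap, 0.031 for Copg2, 0.50 for H19, -0.12 for Kcnq1ot1, -0.45 for Meg3 and -0.19 for Mest. Among pairs, r turned to -0.0279 for Cdkn1c and Kcnq1ot1 as deviations from group means, and without the 2 farthest libraries to 0.332 for Peg3 and Zim1 and -0.563 for Sgce and Peg10.

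The replicate numbers were shared by both groups, and the labels do not say whether same-numbered samples were handled together. The correlations of same-numbered deviations were 0.0638, 0.426 and 0.183 for replicates 1, 2 and 3. Differently numbered samples were not compared in this way, so these values cannot show whether a batch was shared. With the replicate block, 0 members had an unadjusted p under 0.05 and their median log2 fold change was -0.0082, while 499 of all genes passed in place of 285. Library size alone moved the median of all genes to 0.03. Precision was limited by 3 hearts in each group and, for 11 members, by counts too low to test.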
